A study of Beta vulgaris with 9 samples.

Results

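The leaf transcriptome of sugar beet (Beta vulgaris) under alkaline stress was examined for 2 carbonic anhydrase genes, LOC104902037, described in the deposited annotation as carbonic anhydrase, and LOC104897387, described as carbonic anhydrase 2. Both were chosen by gene symbol, and both had been paired with alkaline-responsive long noncoding RNAs (lncRNAs) by the study. They are 2 of 24351 protein-coding genes and hold 4 of 43133 transcripts in the deposited table. Seedlings of cultivar KWS0143, aged 5 weeks, had been germinated in vermiculite and then irrigated with Hoagland solution, by the study's methods. The 3 control libraries were from leaves at day 0, before any alkaline salt was given. The 3 short-term (ST) libraries were from leaves after 3 days with 75 mM of mixed sodium carbonate and sodium bicarbonate, and the 3 long-term (LT) libraries after 7 days of the same solution. All were of the same cultivar and tissue, and the study's methods describe the 3 libraries of a group as biological replicates. Control leaves were sampled only at day 0, so the effect of the salts and that of leaf age or day of harvest cannot be told apart. The comparisons ask how far each gene and each transcript moved in ST and LT leaves.

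Carbonic anhydrases are zinc enzymes that interconvert carbon dioxide and bicarbonate. Plants carry alpha, beta and gamma families of different ancestry, and in the leaves of plants with C3 photosynthesis such as sugar beet a beta-type enzyme of the chloroplast stroma is among the most abundant soluble proteins. In Arabidopsis, beta carbonic anhydrases take part in the response of stomata to carbon dioxide, and gamma carbonic anhydrase subunits are part of respiratory complex I in mitochondria. The deposited names do not say to which family LOC104902037 or LOC104897387 belongs.

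Expression is given as FPKM, fragments scaled to the length of the transcript and to the mapped fragments of its library, summed over the transcripts of a gene. The FPKM of a library, over all transcripts, summed to between 1096069 and 1115393 in control, between 1088388 and 1119080 in ST and between 915463 and 1038379 in LT leaves. Over protein-coding transcripts alone it summed to between 441417 and 458362 in control, 443078 and 462244 in ST and 462460 and 472614 in LT leaves. Read counts were not analysed here, so depth and counting error are unknown. Changes were tested with limma on log2(FPKM + 1) in 1 fit over all 9 libraries, with Benjamini-Hochberg adjustment over 14491 genes or 21244 transcripts and a threshold of 0.05. On this scale a fold change understates the change of genes with low FPKM. The median log2 change of all tested genes was 0.11 in ST and 0.26 in LT against control, and a relative log2 change is the change minus this median. In ST against control 15 genes passed (0.104% of those tested, and 0.0276% fell), and in LT against control 5552 passed (38.3%, of which 1047 or 7.23% of all tested genes fell). After scaling the libraries by median ratios, 1452 genes rose and 1848 fell in LT, against 4505 and 1047 without it. Control replicate 1 stood apart from the other control libraries at LOC104902037, so the tests are also given without it. Chlorophyll a-b binding proteins, taken as markers of leaf mesophyll, were present in every library, with a summed FPKM of 14057 to 39095, and none of the 14 was listed at 0 on average in any group.

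LOC104902037 was one of the most abundant messages of control leaves and lost most of its level within 7 days. Control leaves held 1612, 3089 and 2947 FPKM in replicates 1, 2 and 3. ST leaves held 797, 449.8 and 386 FPKM. LT leaves held 139.9, 116 and 65.9 FPKM. Every ST library lay below every control library and every LT library below every ST library, so that the 3 groups did not overlap. The means were 2549 ± 815 in control, 544 ± 221 in ST and 107 ± 37.8 FPKM in LT (SD, n = 3). The level was thus 4.68 times lower in ST and 23.8 times lower in LT than in control, and 5.08 times lower in LT than in ST.

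The fall from control to LT passed the test, with a log2 change of -4.57 (standard error 0.38, relative change -4.83, adjusted p = 0.0011 from limma), and it passed under all 22 alternative settings (adjusted p from 2.34e-04 to 0.0143). The change from control to ST was -2.24 (relative -2.35) and missed the threshold (adjusted p = 0.0615 from limma). It passed without control replicate 1 (adjusted p = 0.031) and without LT replicate 3 (adjusted p = 0.0411), and over 22 settings its adjusted p ranged from 0.00884 to 0.244. The change from ST to LT was -2.33 (relative -2.48) and did not pass either (adjusted p = 0.0565), but did so without control replicate 1 (adjusted p = 0.0326) or LT replicate 1 (adjusted p = 0.027), within a range of 0.0107 to 0.207 over 22 settings. No gene passed in that comparison (0.0%), while 4013 (27.7%) had an unadjusted p under 0.05. An exact permutation test of the F statistic over the 3 groups gave p = 0.00357, the smallest that 1680 arrangements of these libraries allow. For comparison, every library lay below every control library in 9.9% of all tested genes in ST and in 9.85% in LT, and every LT library below every ST library in 6.57%.

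**Figure D1:**
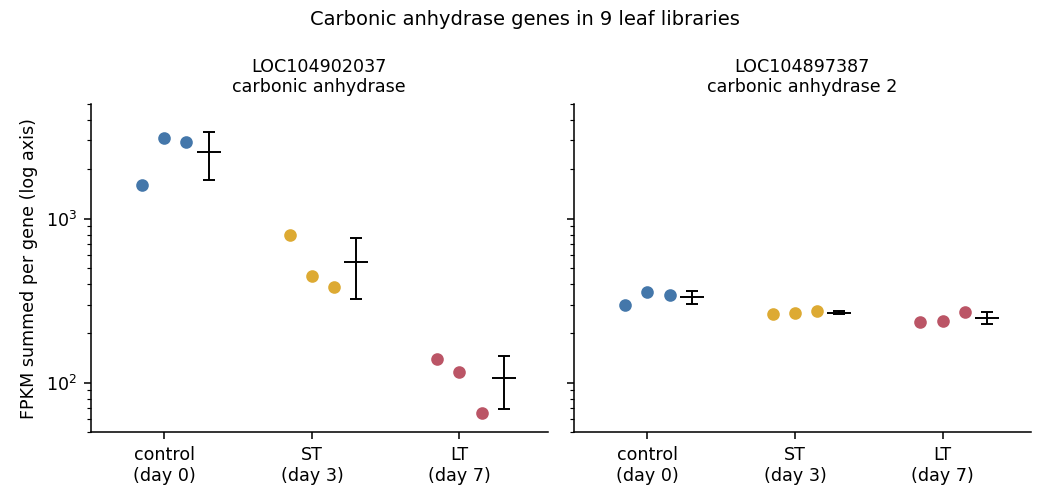
FPKM summed per gene (log axis) of LOC104902037 (left) and LOC104897387 (right) in the 9 leaf libraries. Points are libraries, bars the mean ± SD of 3 libraries. LOC104902037 stepped down from 1612 to 3089 FPKM in control to 65.9 to 139.9 in LT leaves, whereas LOC104897387 stayed between 235 and 357 FPKM throughout.

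Among all protein-coding genes, LOC104902037 ranked 44th, 23rd and 18th by FPKM in the control libraries. It ranked between 87 and 131 in ST and between 408 and 976 in LT leaves. Its share of the FPKM of all protein-coding transcripts was 0.352 to 0.693% in control, 0.0863 to 0.18% in ST and 0.0142 to 0.0296% in LT leaves. Of the 14491 tested genes, 1 had a lower log2 change in LT than LOC104902037. That gene was LOC104906588, which has no product name and went from 147 ± 48.8 to 5.07 ± 2.34 FPKM. In ST, 6 genes had a lower log2 change, among them the Cu-Zn superoxide dismutase LOC104902979 (193 ± 72.5 to 34.5 ± 14.9 FPKM) and the chlorophyll a-b binding protein LOC104883662 (963 ± 497 to 189 ± 146 FPKM), and the other 4 had no product name. In FPKM lost from control to LT, LOC104902037, which fell by 2442 FPKM on the means, was exceeded by 5 genes. These were a ribulose bisphosphate carboxylase (Rubisco) small chain, LOC104886961, the Rubisco activase LOC104904499, the chlorophyll a-b binding protein LOC104900217, and LOC104906059 and LOC104906081, which have no product name. These genes were picked out after their values were seen.

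As a sum, the chlorophyll a-b binding proteins were also lower in ST and LT than in control leaves. From ST to LT their median log2 change was -0.21, against -2.33 for LOC104902037. Their summed FPKM was 29444 to 39095 in control, 17880 to 25478 in ST and 14057 to 22620 in LT leaves, and 8 of 14 fell in LT by the same test (12 after median-ratio scaling), against 1047 of 14491 tested genes (1848 after that scaling). Whether fewer mesophyll cells or less of this RNA per cell lay behind a lower FPKM cannot be told apart in bulk leaf RNA. The part of the mesophyll genes in the fall of LOC104902037 was not tested. Within the deposited annotation, of a genome build not given in the sources used, LOC104902037 lies on the plus strand of NC_025819.2 from 33525253 to 33533631, a span of 8379 bp. It has 1 listed transcript, XM_010689694.1, of 10 exons and 1296 nt, with an open reading frame entered as 337. These entries were read as codons, since only 33.1% of them over all protein-coding transcripts are multiples of 3.

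LOC104897387, carbonic anhydrase 2, was less abundant in control leaves and changed by far less. Control leaves held 297, 357 and 344 FPKM in replicates 1 to 3, ST leaves 264, 267 and 274, and LT leaves 235, 239.6 and 272. All ST and LT libraries lay below the lowest control library, and the ST and LT libraries overlapped. The means were 333 ± 31.5 in control, 268 ± 5.2 in ST and 249 ± 20.0 FPKM in LT (SD, n = 3). The fall to LT, of 1.34 times on the means, passed the test with a log2 change of -0.42 (standard error 0.11, relative change -0.68, adjusted p = 0.0208 from limma). The call did not hold without control replicate 2 (adjusted p = 0.0765), control replicate 3 (0.0713) or LT replicate 2 (0.0669), and it was also lost when the libraries were scaled to the same total FPKM (log2 change -0.25, adjusted p = 0.101). Without control replicate 1 it held (adjusted p = 0.0121). The change in ST was -0.30 (adjusted p = 0.16) and did not pass. From ST to LT the change was -0.11, with a 95% interval from -0.36 to 0.14 (adjusted p = 0.519), and its direction turned to 0.06 with equal total FPKM. The exact permutation test over the 3 groups gave p = 0.0107 for this gene.

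In order of level, LOC104902037 stood above LOC104897387 in every control and ST library and below it in every LT library. The log2 ratio of the former to the latter was 2.44, 3.11 and 3.09 in control, 1.59, 0.751 and 0.492 in ST, and -0.743, -1.04 and -2.03 in LT replicates 1 to 3. The groups did not overlap, and the ratio lay at 2.88 ± 0.384 in control, 0.944 ± 0.574 in ST and -1.27 ± 0.672 in LT (SD, n = 3). The exact permutation test over the 3 groups gave p = 0.00357, the smallest possible, and 0.00893 after Benjamini-Hochberg adjustment over the 5 measures tested in this way. Between any 2 groups of 3 libraries the smallest two-sided exact p is 0.1, which all 3 differences in this ratio reached. The 2 genes thus fell by different amounts, by 4.15 log2 units between control and LT on the ratio. Control replicate 1 had the lowest ratio of the control libraries, and without it the difference between LT and control was -4.37.

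The deposited table divides LOC104897387 into 3 transcripts on the plus strand of NC_025817.2, all ending at position 52037670. XM_010684252.2 starts at 52019563 and has 10 exons, 1313 nt and an open reading frame of 287 codons. XM_019250412.1 starts 1 bp before it, at 52019562, and has 9 exons, 1222 nt and 266 codons. XM_010684253.2 starts at 52026225, which is 6663 bp further downstream, and has 9 exons, 1036 nt and 266 codons. The transcripts overlap over the whole span of the shortest and end together, so their FPKM is an estimate by the authors' software of how shared fragments divide, and the division is less certain than the sum.

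XM_010684252.2, the longest form, was the main transcript of control leaves and carried the fall of the gene. It held 218, 296 and 319.7 FPKM in control, 146, 196 and 162 in ST and 126, 108 and 132 in LT replicates 1 to 3. None of the 3 groups overlapped, whereas every library lay below those of the earlier group in 9.08% of all tested transcripts from control to ST, in 9.36% from control to LT and in 6.72% from ST to LT. The means were 278 ± 53.4, 168 ± 25.8 and 122 ± 12.8 FPKM (SD, n = 3), and the log2 change in LT was -1.17 (standard error 0.17, adjusted p = 0.00742 from limma). At transcript level 5.05% of those tested fell in LT and 16.0% rose (21.1% in all), and 0.08% passed in ST and 0.00941% between ST and LT in either direction. The LT call held under all 21 alternative settings, while the change in ST, of -0.72, did not pass (adjusted p = 0.121). The exact permutation test over the 3 groups gave p = 0.00357.

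XM_010684253.2, the form with the downstream start, went the other way. It held 79.1, 60.6 and 19.6 FPKM in control, 77.5, 70.5 and 73.4 in ST and 109, 132 and 138 in LT replicates 1 to 3. The LT libraries lay above all others, as in 28.9% of all tested transcripts against control and in 20.9% against ST, and control replicate 3 lay far below its group. The log2 change in LT was 1.44 (standard error 0.43, relative change 1.22), and the adjusted p of 0.0453 from limma was close to the threshold. The call was kept in only 6 of 21 alternative settings. It was lost after median-ratio scaling (log2 change 1.14, adjusted p = 0.0961), with the replicate block (adjusted p = 0.0796) and when any library other than control replicates 1 and 3 was left out. The adjusted p was then 0.0757 without control replicate 2, 0.0682, 0.0661 and 0.0686 without ST replicates 1, 2 and 3, and 0.065, 0.12 and 0.103 without LT replicates 1, 2 and 3. The change in ST, of 0.68, did not pass (adjusted p = 0.46) and was 0.09 without control replicate 3. The exact permutation test over the 3 groups gave p = 0.0143.

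XM_019250412.1 was erratic between replicates. It was estimated at 0.235, 0.163 and 5.02 FPKM in control, 41.0, 0.146 and 39.2 in ST and 0, 0.0621 and 0.784 in LT replicates 1 to 3. High values appeared in 2 ST libraries alone, while ST replicate 2 was as low as the control and LT libraries. No change passed (adjusted p from 0.203 to 0.723 from limma), and the sign of the difference between LT and control depended on control replicate 3, without which it was 0.05. It differs from XM_010684252.2 by 1 bp at the start and by 1 exon. The 2 forms together, which start in the upstream region, summed to 279.6 ± 55.3 FPKM in control, 195 ± 7.19 in ST and 122 ± 13.0 in LT leaves, and the groups did not overlap. This sum was formed after the data were seen, so its exact permutation p over the 3 groups, 0.00357, is given as a description only. It is 1 of the 5 measures adjusted together. How often such sums separate the 3 groups in other genes was not counted.

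Within the gene, the balance of the transcripts shifted. XM_010684253.2 made up 26.6, 17.0 and 5.69% of the gene's FPKM in control, 29.3, 26.4 and 26.8% in ST and 46.4, 55.0 and 51.0% in LT replicates 1 to 3. The LT libraries lay above all ST and control libraries, and the ST and control libraries overlapped. The share of XM_010684253.2 rose from 16.4 ± 10.5% in control to 50.8 ± 4.31% in LT (SD, n = 3; exact permutation test over the 3 groups p = 0.00714, adjusted 0.00893 over 5 measures). The share of XM_010684252.2 was 83.0 ± 9.78% in control, 62.5 ± 9.72% in ST and 49.1 ± 4.33% in LT leaves. Its exact permutation p over the 3 groups was also 0.00714. The difference between LT and control in the share of XM_010684253.2 was 34.4 percentage points, and it lay between 29.0 and 39.5 when each library was left out.

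**Figure D2:**
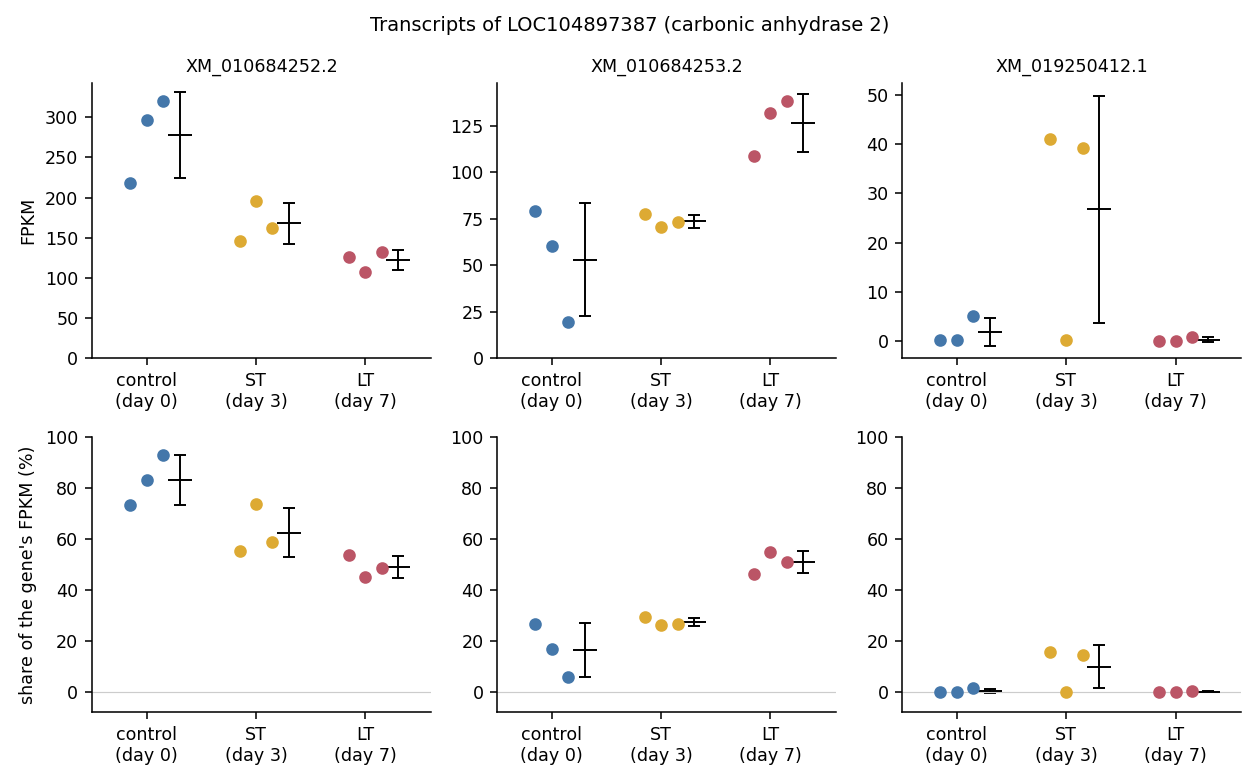
FPKM (upper panels) and share of the gene's FPKM in percent (lower panels) of the 3 transcripts of LOC104897387 in the 9 libraries. Points are libraries, bars the mean ± SD of 3 libraries. XM_010684252.2 went from 83.0 to 49.1% of the gene and XM_010684253.2 from 16.4 to 50.8% between control and LT, and XM_019250412.1 was high in 2 ST libraries.

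Among the 6515 genes with a product name, 8 were named as carbonic anhydrases, and 7 of them passed the filter on low values (a mean above 0.5 FPKM in control, ST or LT). None passed the test in ST, where 0.104% of all tested genes passed. In LT 3 of the 7 fell and none rose, against 7.23% and 31.1% of all tested genes. Of the 3, LOC104902037 and LOC104897387 were the genes chosen at the start, so the count adds only the alpha carbonic anhydrase 1 gene LOC104898358. It stood at 98.5 ± 12.8 FPKM in control, 84.1 ± 8.68 in ST and 56.9 ± 2.95 in LT. Its log2 change in LT was -0.77 (relative -1.03, adjusted p = 0.0057 from limma), and it held under all 22 settings. The second alpha carbonic anhydrase 1 gene, LOC104898356, was listed at 0 in every library and could not be tested. The beta carbonic anhydrase 5 gene LOC104904741 stood at 27.1 ± 1.34, 28.2 ± 0.688 and 31.3 ± 3.37 FPKM in control, ST and LT (adjusted p = 0.155 in LT).

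The gamma members are homologues of complex I subunits. LOC104895053 stood at 47.0 ± 2.22, 43.0 ± 3.31 and 47.5 ± 4.17 FPKM in control, ST and LT, LOC104895054 at 12.2 ± 1.49, 12.3 ± 0.534 and 13.9 ± 0.395, and the gamma-like LOC104908029 at 22.9 ± 1.77, 23.4 ± 1.72 and 26.8 ± 0.535. None of the 3 passed in LT (adjusted p = 0.939, 0.212 and 0.103 from limma). Every LT library of LOC104908029 (26.3 to 27.4 FPKM) lay above every control library (21.0 to 24.4) and every ST library (21.6 to 25.0). The share of all genes in this order was not counted. Among tested transcripts it was 28.9% against control and 20.9% against ST. With equal total FPKM, LOC104904741, LOC104908029 and LOC104895054 passed as higher in LT (adjusted p = 0.0432, 0.0174 and 0.0381 from limma). Under that scaling 6547 of 14524 tested genes rose in LT. After median-ratio scaling none of these genes passed (adjusted p = 0.532, 0.646 and 0.517 from limma). They passed in 2, 2 and 1 of 22 alternative settings. The FPKM of all carbonic anhydrase genes together was 2105 to 3670 in control, 843 to 1258 in ST and 518 to 546 in LT leaves. LOC104902037 was the largest term of that sum in every control and ST library.

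**Figure D3:**
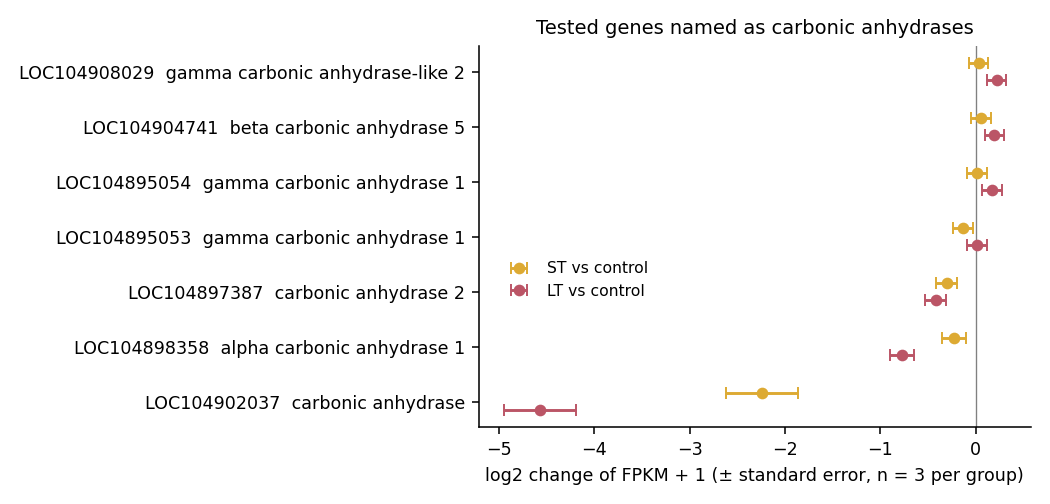
Log2 change of FPKM + 1 (± standard error, n = 3 per group) against control in ST and LT leaves for the 7 tested genes named as carbonic anhydrases. LOC104902037 stood at -2.24 in ST and -4.57 in LT, whereas the other 6 lay between -0.77 and 0.22.

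Genes of carbon assimilation and related processes were then set beside the 2 genes, from lists made by product name. No list had a member that passed in ST. Of 22 tested genes of the Calvin cycle, which fixes carbon dioxide through Rubisco, 14 fell and 3 rose in LT (15 fell and 0 rose after median-ratio scaling), and their median log2 change was -0.56 against 0.26 for all genes. The Rubisco activase LOC104904499 fell from 6930 ± 805 to 3303 ± 631 FPKM between control and LT (adjusted p = 0.0056 from limma). A Rubisco small chain gene, LOC104886961, fell from 5310 ± 796 to 2479 ± 536 FPKM. The glyceraldehyde-3-phosphate dehydrogenase A gene LOC104907408 fell from 2552 ± 373 to 1546 ± 137 and the phosphoribulokinase gene LOC104893060 from 1139 ± 114 to 701 ± 13.9 FPKM.

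Of 18 genes caught by the photorespiration pattern, the pathway that recycles the product of Rubisco's oxygenase reaction, 6 fell and 2 rose in LT (7 and 1 after median-ratio scaling), with a median log2 change of -0.11. The glycine cleavage H protein LOC104892947 fell from 807 ± 86.8 to 511 ± 63.0 FPKM (limma, adjusted p = 0.015), but missed the threshold without control replicate 2 (0.0528), control replicate 3 (0.0564) or LT replicate 2 (0.0553). The glutamate-glyoxylate aminotransferase LOC104897276, at 1063 ± 91.1 and 831 ± 79.4 FPKM in control and LT, was just under the threshold (adjusted p = 0.0497) and passed in only 9 of 22 alternative settings (up to 0.224). The glycine dehydrogenase LOC104884780 (749 ± 127 and 648 ± 108 FPKM in control and LT) and the serine hydroxymethyltransferase LOC104897800 (776 ± 76.0 and 657 ± 109 FPKM) did not pass. These 4 genes have the highest mean FPKM of the list. The other genes of the list that fell, not named here, had an adjusted p from 0.00465 to 0.0298 (limma). The 2 that rose were the 2-hydroxy-acid oxidase LOC104883850 (8.18 ± 5.24 to 19.6 ± 5.71 FPKM, kept in 14 of 22 settings with an adjusted p of up to 0.0935) and the D-3-phosphoglycerate dehydrogenase LOC104901403 (49.6 ± 19.4 to 245 ± 52.1 FPKM), which belongs to serine synthesis and was caught by its name.

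The 12 tested genes matched by name to bicarbonate-using carboxylases and synthases include separate subunits of these enzymes. Which subunits take up bicarbonate was not told apart. Of the 12, 3 rose and 3 fell in LT (3 and 4 after median-ratio scaling), with a median log2 change of 0.04. The beta chain of methylcrotonoyl-CoA carboxylase, an enzyme of leucine breakdown (LOC104905097), rose from 9.79 ± 2.35 to 23.8 ± 4.62 FPKM, and the acetyl-CoA carboxylase 1 gene LOC104898085 from 10.5 ± 2.06 to 20.8 ± 4.66. All 3 genes that fell were named as subunits of acetyl-CoA carboxylase (limma, adjusted p from 0.00778 to 0.0373). A carboxyl transferase subunit of acetyl-CoA carboxylase, LOC104898138, at 37.2 ± 4.17 and 39.0 ± 6.74 FPKM in control and LT, did not pass. The carbamoyl-phosphate synthase small chain LOC104898326, at 18.0 ± 1.55 and 18.2 ± 0.8 FPKM, did not pass either.

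Of 5 tested genes of the stomatal response to carbon dioxide, 1 rose in LT, and 0 after median-ratio scaling. It was LOC104886796 (23.5 ± 4.91 to 40.9 ± 7.03 FPKM), a gene named as protein kinase HT1. The other genes named HT1 or HT1-like did not pass in LT (limma, adjusted p from 0.146 to 0.96). HT1 controls stomatal movement in Arabidopsis in response to carbon dioxide. Of 6 tested genes on the zinc transport list, 3 rose and 0 fell under both scalings. The list holds metal tolerance proteins, whose product names do not give the metal carried. The zinc transporter 4 gene LOC104884321 rose from 25.7 ± 14.2 FPKM in control to 110.0 ± 19.9 in LT, with 92.4 ± 9.35 in ST, the metal tolerance protein 11 gene LOC104886952 from 24.0 ± 7.97 to 52.1 ± 6.38 and the zinc transporter 6 gene LOC104894782 from 8.10 ± 1.68 to 16.7 ± 4.02. The background is that 31.1% of all tested genes rose in LT and 7.23% fell, and genes with no product name could not enter any list. The lowest relative log2 change over these lists was that of LOC104902037, at -4.83, followed by the chlorophyll a-b binding protein LOC104883662, at -3.15.

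**Figure D4:**
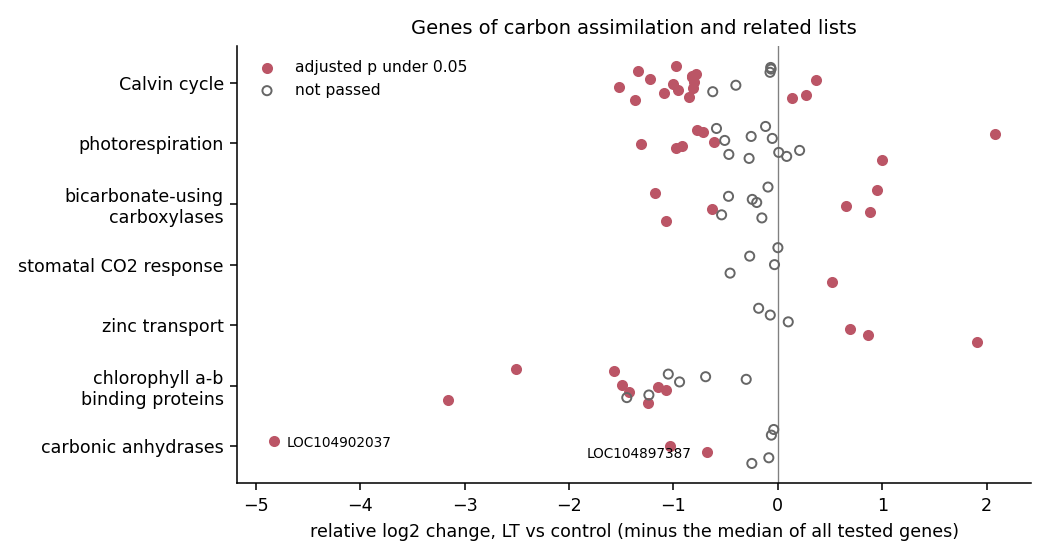
Relative log2 change in LT against control (log2 change minus the median of all tested genes) for the tested genes of 7 lists. Filled points passed the test at an adjusted p under 0.05. LOC104902037 lay at -4.83, LOC104897387 at -0.68, and 14 of 22 Calvin cycle genes and 8 of 14 chlorophyll a-b binding protein genes fell.

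The study paired LOC104902037 with the intergenic lncRNAs LNC_007731 and LNC_000365, and LOC104897387 with LNC_007731, by coexpression in these same libraries. LNC_007731, of 281 nt on the unplaced sequence NW_017567826.1 (18569 to 18849, minus strand), held 23.0, 28.5 and 28.6 FPKM in control, 11.2, 15.6 and 9.79 in ST and 11.5, 10.8 and 11.1 in LT replicates 1 to 3. The control libraries lay above all others, and the ST and LT libraries overlapped. LNC_000365, of 287 nt on the minus strand of NC_025812.2 (8571769 to 8572055), held 1044, 1238 and 1480.3 FPKM in control, 734, 736 and 732 in ST and 511, 474 and 552 in LT replicates. Its 3 groups did not overlap, as those of LOC104902037 did not. Every library lay below those of the earlier group in 9.08% of all tested transcripts from control to ST. The share was 9.36% from control to LT and 6.72% from ST to LT. LNC_007731 and LNC_000365 fell in LT (adjusted p = 0.00693 and 0.00343 from limma), as did 5.05% of tested transcripts. Neither passed in ST (0.0701 and 0.0861). The study had called both alkaline-responsive in these libraries. Both lncRNAs lie on other sequences than their paired genes.

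Over the 9 libraries, LOC104902037 had a Pearson r of 0.952 with LNC_000365 (exact permutation p = 3.8e-04, adjusted over 4 pairs 7.61e-04) and a Spearman rho of 0.917 (p = 0.00131, adjusted 0.00525). Without control replicates 2 and 3, the 2 libraries farthest from the median of the lncRNA, r was 0.921 (exact permutation p = 0.00615). With LNC_007731, r was 0.849 (exact permutation p = 0.00756, also after adjustment) and rho 0.8 (p = 0.0138, adjusted 0.0184). Without the same 2 libraries, which are 2 of the 3 control libraries, r was 0.656 and no longer passed (exact permutation p = 0.113, n = 7). Leaving them out also removes most of the control group, so this cannot show what the correlation rests on. With each library left out in turn, r lay between 0.799 and 0.918. LOC104897387 had an r of 0.878 with LNC_007731 (exact permutation p = 0.00233, adjusted 0.0031) and a rho of 0.567 (p = 0.121, also after adjustment). Without those libraries r was 0.598 and did not pass (exact permutation p = 0.154), with the same limit. It lay between 0.824 and 0.924 with each library left out in turn. For LNC_000365, which the study did not list with LOC104897387 in the pairs used here, r was 0.939 (exact permutation p = 3.11e-04, adjusted 7.61e-04) and rho 0.833 (p = 0.00827, adjusted 0.0165), and r was 0.872 without those libraries (exact permutation p = 0.00972).

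All of these values include the differences between groups. Of deviations from the group means, LOC104902037 had an r of 0.253 with LNC_000365 (exact permutation p within groups 0.574) and 0.261 with LNC_007731 (0.681). LOC104897387 had 0.278 with LNC_007731 (0.426) and 0.724 with LNC_000365 (0.218), so that no relation within groups passed. Since the pairs were picked for coexpression in these libraries, the p-values over the 9 libraries are not independent evidence.

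**Figure D5:**
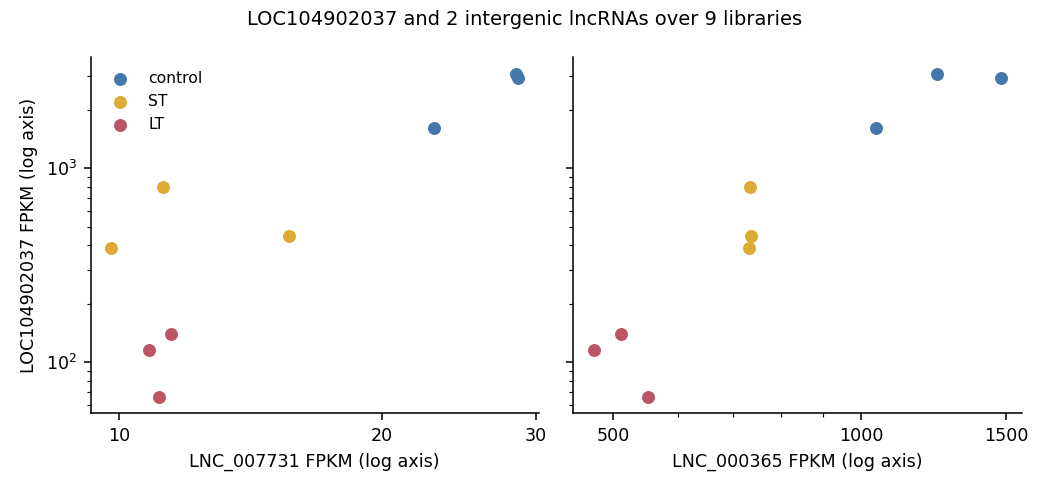
FPKM of LOC104902037 against FPKM of LNC_007731 (left) and LNC_000365 (right) in the 9 libraries, both axes logarithmic. Points are libraries coloured by group. ST and LT libraries share the range of LNC_007731 between 9.79 and 15.6 FPKM while LOC104902037 differs between them, and the 3 groups separate along LNC_000365.

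Of 4058 genes with a product name and a mean of at least 1 FPKM, the 5 most like LOC104902037 over the 9 libraries by Pearson r of log2(FPKM + 1) were the plastid transcriptionally active protein gene LOC104900056 (r = 0.981), the Cu-Zn superoxide dismutase LOC104902979 (0.979), the 6-phosphofructo-2-kinase LOC104903114 (0.978), the photosystem I subunit N gene LOC104895406 (0.977) and the 15-cis-phytoene desaturase LOC104899658 (0.977), an enzyme of carotenoid synthesis. Of the 5, the superoxide dismutase had the lowest LT level relative to control, at 193 ± 72.5, 34.5 ± 14.9 and 12.8 ± 7.42 FPKM in control, ST and LT. Photosystem I subunit N stood at 1455 ± 197, 893 ± 123 and 523 ± 76.5 FPKM. LOC104897387 came at position 332 on that order, with r = 0.841. The 5 most like LOC104897387 were the outer envelope protein 80 gene LOC104899865 (r = 0.971), the ferredoxin-dependent glutamate synthase LOC104889481 (0.969), which assimilates ammonium in leaves, the transporter gene LOC104890754 (0.955), the thylakoid lumenal protein gene LOC104886763 (0.953) and the GDT1-like gene LOC104892218 (0.953). The glutamate synthase stood at 331 ± 58.1, 246 ± 4.77 and 204 ± 23.0 FPKM in control, ST and LT. These correlations are over libraries that share the same 3 groups and are given as a description.

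No lncRNA or transcript of uncertain coding potential overlapped either gene. Within 100 kb of LOC104902037 lay 4 lncRNAs, none with a group mean over 0.5 FPKM, the nearest being LNC_005030 at 30174 bp after the gene (at most 0.501 FPKM in any library), with none before it. Within 100 kb of LOC104897387 lay 10 lncRNAs, of which 2 were tested and 0 passed. The nearest were LNC_003783, 54759 bp before the gene (at most 0.71 FPKM), and LNC_003784, 31093 bp after it (at most 0.998 FPKM).

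The nearest genes on either side had a lower mean FPKM than the carbonic anhydrase gene between them in every group. LOC104902035, 2933 bp before LOC104902037 and without a product name, was low throughout, with 1.68 ± 0.938 FPKM in control and 0.4 ± 0.21 in LT, a fall that passed (limma, adjusted p = 0.0194) except without LT replicate 2 (0.07) and in the fit of 2 groups only (0.0512). The heme oxygenase 1 gene LOC104902038, whose product starts bilin synthesis from heme, lies 6567 bp after it and stood at 38.8 ± 3.59, 43.1 ± 2.69 and 36.1 ± 5.87 FPKM in control, ST and LT (adjusted p = 0.529 in LT). Before LOC104897387, at 6381 bp, the AMSH-like ubiquitin thioesterase 2 gene LOC104897386 rose from 2.50 ± 0.171 to 4.42 ± 0.629 FPKM (adjusted p = 0.00852). After it, at 15893 bp, LOC104897388 stood at 137 ± 16.7 FPKM in control and 102 ± 14.0 in LT (adjusted p = 0.0672).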

How the data were processed

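Leaf RNA of 9 libraries (control, ST and LT, 3 each, grouped by the sample labels) was depleted of ribosomal RNA and sequenced on strand-specific libraries. The authors used HISAT2 for alignment and StringTie 1.3.1 for assembly. They deposited FPKM per transcript, credited to Cuffdiff in their methods, with coordinates, exon number and length. No genome build is given in the sources used, and which program divided fragments between transcripts cannot be read from the values.

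FPKM was summed over the protein-coding transcripts of each gene. Features with a group mean over 0.5 FPKM were tested with limma 3.58.1 (R 4.3.3) on log2(FPKM + 1) with a variance trend, as the values are not counts. Shares, the ratio of the 2 genes and correlations were tested by exact permutation in Python 3.11.15 with numpy 2.4.6, pandas 2.3.3 and SciPy 1.17.1. The steps were tested on simulated data.

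Genes and lists were chosen with earlier results of these data known. Named genes were the 2 genes and their transcripts, the 2 paired lncRNAs, all genes named as carbonic anhydrases, the nearest neighbours within 100 kb, up to 4 members of highest mean FPKM per list, and the 5 genes most like each. Exceptions, chosen after their values were seen, were the genes beyond LOC104902037 in change, LOC104883850 and LOC104901403, LOC104883662, and the STAY-GREEN genes. Of 13 lists, 5 (plasma-membrane aquaporins and markers of guard cells, phloem, epidermis and root) matched no product name, so these cell types were not checked. A planned promoter motif search was not run.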

Additional observations from a re-analysis of the deposited data

How the results depend on the processing

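The counts of genes that passed depended on the settings. In ST against control, 15 genes passed, and 9 did so with no filter, 105 with a filter over 5 FPKM, 43 in a fit of the 2 groups only, 2194 with array weights, 0 with the unmoderated F-test and 1 with the replicate block. In LT against control, 5552 became 3300 after median-ratio scaling, 3290 in the fit of 2 groups and 3246 with the block. In LT against ST, 0 became 48 with the filter over 5 FPKM, 1852 (1750 higher) with equal total FPKM, 4 in the fit of 2 groups, 2 without the variance trend, 3790 with array weights, 3 with the F-test, 3 with the block and 2 with lncRNA loci added, an alternative chosen after seeing the data. For transcripts in ST, 17 became 26 with pseudocount 0.01, 3 with no filter, 63 with the filter over 5 FPKM, 5 with equal total FPKM, 0 in the fit of 2 groups, 3 without the trend, 552 with array weights, 0 with the F-test and 0 with the block. In LT, 4479 became 2947 with no filter, 2784 after median-ratio scaling, 1425 in the fit of 2 groups and 1454 with the block. In LT against ST, 2 became 0 with pseudocounts of 0.1 and 0.01 and with the filter over 5 FPKM, 252 with array weights, 5 with the F-test and 4 with the block. Leaving out each library gave 0 to 522 genes in ST, 2323 to 5782 in LT and 0 to 1270 in LT against ST, and 0 to 121, 1170 to 4944 and 3 to 196 transcripts. The causes were not tested.

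LOC104902037 in ST passed with the filter over 5 FPKM (log2 change -2.24, adjusted p = 0.0476 from limma) and array weights (-2.37, 0.00884). From ST to LT it passed with that filter (-2.33, 0.0499), equal total FPKM (-2.15, 0.0415) and array weights (-2.29, 0.0107). Without each library in turn, the change lay between -2.55 and -2.03 in ST and between -2.55 and -2.01 from ST to LT. LOC104897387 passed in ST with array weights (-0.36, 0.0276), was lost in LT with equal total FPKM (-0.25, 0.101) and in the fit of 2 groups (-0.42, 0.0626), with -0.50 to -0.36 over the libraries left out, and turned to 0.0621 from ST to LT with equal total FPKM. XM_010684252.2 passed in ST with array weights (-0.80, 0.0381). XM_010684253.2 in LT missed the threshold with pseudocount 0.01 (1.47, 0.0512), no filter (1.44, 0.0857), median-ratio scaling (1.14, 0.0961), equal protein-coding FPKM (1.39, 0.0531), the fit of 2 groups (1.44, 0.106), no trend (1.44, 0.0503), the F-test (1.44, 0.0982) and the block (1.44, 0.0796), with 0.85 to 1.83 over the libraries left out. Over the libraries left out, XM_019250412.1 in LT ranged from -1.14 to 0.0461 and its share from -0.663 to 0.0424 percentage points, turning positive without control replicate 3. The other changes of both genes and of the 3 transcripts of LOC104897387 kept their direction and side of the threshold. So did the Pearson correlations over 11 settings, but those with LNC_007731 did not pass without control replicates 2 and 3 together. The ratio and the other shares kept their direction, with no test repeated for them. Among 55 other named genes and 2 lncRNAs, 40 tests lost and 35 gained the threshold when a library was left out, 30 lost and 79 gained it under the other settings, and 85 changes of sign passed under neither setting.

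Replicate numbers did not pair the samples. Same-numbered deviations correlated between -0.61 and 0.35, over 0.1 in 2 of 9 pairs. With the replicate block, LOC104902037 (adjusted p = 0.00774) and LOC104897387 (0.0476) kept their calls in LT, and of the members only XM_010684253.2 lost one. Unknown depth, 3 libraries a group and controls at day 0 only limit all results.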

Other observations

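Of the markers of leaf senescence, 2 genes carried a matching product name. STAY-GREEN 1, LOC104892367, which takes part in chlorophyll breakdown, rose from 13.0 ± 5.97 FPKM in control to 34.6 ± 7.88 in LT (SD, n = 3; adjusted p = 0.0151 from limma, and 0.0585 without LT replicate 2), with 27.6 ± 8.53 in ST. STAY-GREEN LIKE, LOC104894688, fell from 55.4 ± 6.99 to 38.7 ± 4.67 FPKM in LT (adjusted p = 0.018, and 0.058, 0.0675 and 0.0617 without control replicates 2 and 3 and LT replicate 2), with 41.8 ± 0.969 in ST. The part of these genes in the fall of the carbonic anhydrases was not tested.

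In ST leaves, where no gene of these lists passed, the D-3-phosphoglycerate dehydrogenase LOC104901403 (163 ± 18.6 FPKM) and the zinc transporter 4 gene LOC104884321 (92.4 ± 9.35 FPKM) had the same adjusted p as LOC104902037, 0.0615 from limma, in the other direction.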
